A study of Mus musculus with 8 samples.

Results

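The 38 genes described here belong to the unfolded protein response and to protein folding in the endoplasmic reticulum (ER), and they were chosen by name from the 27179 genes of a mouse dendritic cell read count table. RNA was sequenced from plasmacytoid dendritic cells (pDC), the interferon-producing dendritic cell type, and from conventional dendritic cells (cDC), which present antigen to T cells. All mice were C57BL/6 and carried a leukemia, and both cell types were sorted from their spleens. The 4 groups were pDC from panobinostat-treated mice, pDC from vehicle-treated mice, cDC from panobinostat-treated mice and cDC from vehicle-treated mice. Each group had 2 libraries, labelled replicate 1 and replicate 2, and each library came from a pool of 3 to 6 mice after 2 days of treatment. Panobinostat is a histone deacetylase inhibitor. No healthy mice were among the samples, so the leukemia was common to all groups, and the labels name no dose, type of leukemia or surface markers of the sort.

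The ER folds the proteins that a cell secretes or places on its surface. When unfolded proteins accumulate, the sensors IRE1 (gene Ern1), PERK (Eif2ak3) and ATF6 (Atf6) send signals to the nucleus: IRE1 splices Xbp1 mRNA, PERK slows translation and favours the making of ATF4, and ATF6 is cut to release a transcription factor. Their targets are chaperones such as BiP (Hspa5), disulfide isomerases, the parts of ER-associated degradation that return misfolded proteins to the cytosol, and the translocon through which new proteins enter. pDC are rich in ER and are known to depend on XBP1, and the IRE1 and XBP1 branch is also known for its role in cDC that take up dead cells. Gene level counts of this kind measure the amount of Xbp1 mRNA and not its splicing.

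The DNA elements through which ATF6 and XBP1 act on this pathway are shown first, for the genes that held an exact match. The ER stress response element (ERSE) is spelled CCAAT, then 9 bases of any kind, then CCACG. In the 250 bases before the start of each gene in RefSeq (build GRCm38.p6), searched on both strands, 9 of the 32 genes with an entry held it. The same letters stood in 0.113% of 32851 mouse promoters of that length. The genes were chosen by name as members of this pathway, so the 2 shares are a description and no test. A match of letters does not show binding. The lumenal chaperone genes Sdf2l1, Dnajb9 and Dnajb11 had an entry and no exact match. The sequences read 5′ to 3′ on the strand that carries the element, with the element in capitals and 10 bases on either side in lower case.
Hspa5, chr2:34772015-34772053, plus strand: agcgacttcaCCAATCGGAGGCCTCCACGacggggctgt
Calr, chr8:84847065-84847103, plus strand: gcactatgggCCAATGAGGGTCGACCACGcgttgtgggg
Canx, chr11:50325790-50325828, minus strand: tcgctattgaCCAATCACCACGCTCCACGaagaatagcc
Pdia6, chr12:17266481-17266519, plus strand: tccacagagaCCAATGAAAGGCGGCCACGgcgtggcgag
Dnajc3, chr14:118937817-118937855, plus strand: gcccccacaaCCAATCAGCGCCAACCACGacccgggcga
Creld2, chr15:88819510-88819548, minus strand: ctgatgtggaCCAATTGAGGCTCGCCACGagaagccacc
Syvn1, chr19:6046522-6046560, plus strand: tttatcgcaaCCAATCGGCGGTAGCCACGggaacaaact
Hsp90b1, chr10:86705628-86705666, minus strand: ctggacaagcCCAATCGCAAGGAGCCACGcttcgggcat
Hsp90b1, chr10:86705523-86705561, plus strand: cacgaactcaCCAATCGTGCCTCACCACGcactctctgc
Derl3, chr10:75893232-75893270, minus strand: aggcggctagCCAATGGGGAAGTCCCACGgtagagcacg

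Other letters of the pathway were rarer among these genes. The shorter element ERSE-II, spelled ATTGG, then 1 base of any kind, then CCACG, stood in Herpud1 and in 0.0304% of all promoters. The XBP1 core TGACGTGG stood in Sec24d and in 0.563% of all promoters. The amino acid response letters TGATGNAA, which can be read by ATF4 dimers, stood in Chac1 and Herpud1 and in 3.45% of all promoters. No 2 of these matches overlapped.
Herpud1 ERSE-II, chr8:94386367-94386397, plus strand: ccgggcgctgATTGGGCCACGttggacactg
Sec24d XBP1 core, chr3:123267460-123267487, plus strand: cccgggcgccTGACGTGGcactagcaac
The start that RefSeq's promoter entry uses for Sec24d lies inside the gene's span in RefSeq. The whole 250 bases before the Hspa5 start are given because Hspa5 had the smallest p of these genes for panobinostat in cDC. Its exact ERSE match is again in capitals, and looser spellings of the element were not searched.
Hspa5, chr2:34771840-34772089, plus strand: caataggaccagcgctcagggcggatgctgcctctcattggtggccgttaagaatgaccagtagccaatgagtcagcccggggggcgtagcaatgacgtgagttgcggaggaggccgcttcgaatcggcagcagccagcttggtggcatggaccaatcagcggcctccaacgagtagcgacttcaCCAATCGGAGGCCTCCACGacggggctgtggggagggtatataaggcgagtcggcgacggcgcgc

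**Figure D1:**
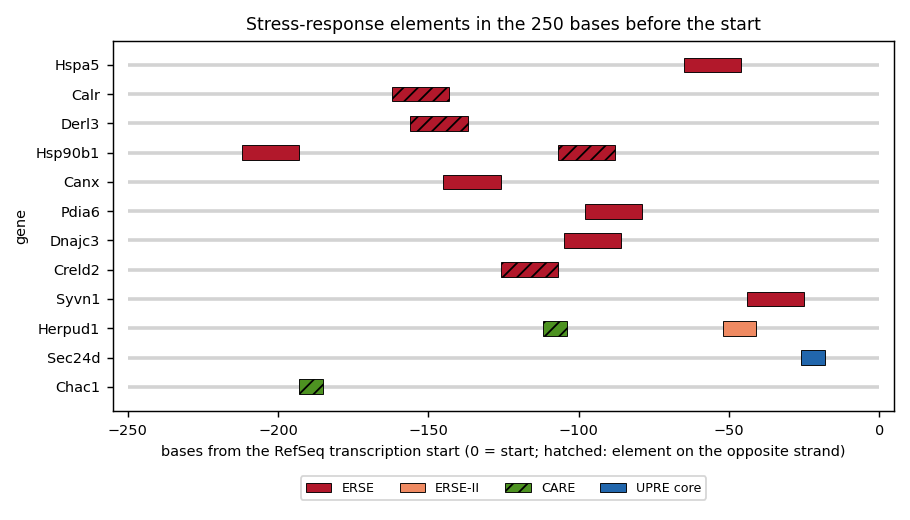
Position of each matched element in the 250 bases before the RefSeq start of 12 genes, with distance from the start in bases on the horizontal axis. Each box spans 1 element, coloured by its kind, and hatching marks elements on the strand opposite to the gene. Among the ERSEs, that of Syvn1 lies nearest to the start, 44 to 26 bases before it, and the distal ERSE of Hsp90b1 lies farthest, 212 to 194 bases before it.

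The libraries held 13124861 to 20657429 counts. Panobinostat-treated pDC replicate 2 stood apart: it was the shallowest, had a count for 10745 genes against 14927 to 19950 in the other 7, and its log2 levels correlated with those of replicate 1 at r = 0.801 across genes, where the other 3 groups had r of 0.965 to 0.973. Most marker genes fitted the labels of cell type, but not all did. Siglech, a pDC receptor, was at 4061 to 6548 CPM (counts scaled to the library's total with TMM factors) in the 4 pDC libraries and at 1.6 to 3.3 CPM in the 4 cDC libraries, and Zbtb46, a transcription factor of cDC, was at 2.4 to 19.6 CPM in pDC and at 137 to 200 CPM in cDC. Of 14 pDC marker genes, 12 were called higher in pDC than in cDC under each treatment (7.76% of all genes with panobinostat and 5.01% with vehicle). Of 14 cDC marker genes, 10 with panobinostat and 11 with vehicle were lower in pDC without overlap, and 1 was called higher in pDC under each treatment. Clec10a, a lectin on the cDC list, was at 381 to 666 CPM in pDC and at 3.7 to 16.8 CPM in cDC, and Clec9a, a receptor of cDC that take up dead cells, was at 164 to 310 CPM in pDC and at 107 to 283 CPM in cDC. The protocol text of the labels describes a sort of leukemia cells, where titles and source names give dendritic cells. In bulk RNA, fewer cells of a type and less RNA per cell cannot be told apart.

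Per kb of exon, Hspa5, Hsp90b1, Pdia3 and Herpud1 were among the 5 highest of the 38 genes in each group, while the chaperone Hyou1 ranked 30th to 33rd. Hspa5, the HSP70 of the ER lumen and the chaperone that holds the sensors inactive, ranked first in each group by CPM per kb. It averaged 543 ± 24.7 CPM per kb in panobinostat-treated pDC and 472 ± 81.2 in vehicle-treated pDC (SD, n = 2 each). In cDC it averaged 627 ± 106 CPM per kb with panobinostat and 360 ± 60.7 with vehicle (SD, n = 2 each). Hsp90b1, the HSP90 of the ER (GRP94), ranked 2nd in both pDC groups, 5th in panobinostat-treated cDC and 4th in vehicle-treated cDC. Pdia3, an isomerase of glycoproteins, ranked 2nd in both cDC groups. In each group, the first and 2nd genes of this order differed by less than the larger of their SDs. The sensors stood low: Eif2ak3 averaged 2.95 and 2.19 CPM per kb in panobinostat-treated and vehicle-treated pDC, and 1.67 and 1.38 in panobinostat-treated and vehicle-treated cDC. Chac1, a glutathione-degrading enzyme that ATF4 and CHOP switch on, ranked last in each group, had 16 counts or fewer in each library and was left out of the tests as too low, so 37 genes were tested. Trib3, a pseudokinase and the other gene of that role, reached 35 counts at most.

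In cDC, panobinostat was not followed by a called change in any of the 37 genes, but most of them were somewhat higher with the drug. A gene was called at an adjusted p below 0.05 (edgeR's quasi-likelihood test, Benjamini-Hochberg over 14238 genes), and in this comparison 0.0% of all genes were called. The test takes 1 spread per gene from all 4 groups, the unlike treated pDC libraries included. At an unadjusted p below 0.05 stood 5 of the 37 genes and 206 of all genes, and DESeq2 and limma-voom called 0 of the 37. The log2 fold change was above 0 in 34 of 37, against 50.4% of all genes. The lower of the 2 panobinostat libraries exceeded the higher vehicle library in 27 of 37, against 22.2% of all genes, and the groups were apart in the other direction in 1 of 37 (Derl3), against 18.8%. The median log2 fold change was 0.31 for the 37 genes and 0.003 for all genes. These genes also moved together between the 2 libraries of 1 cDC group. Replicate 2 was above replicate 1 in 33 of 37 with panobinostat (median log2 difference 0.22, against 0.02 for all genes). With vehicle it was above in 30 of 37 (0.18, against 0.02 for all genes). Under a scaling by library size alone the median of all genes shifted to -0.13, that of these genes was 0.17, and 32 of 37 remained above 0.

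Among the lumenal chaperones in cDC, all 8 were above 0 and 6 did not overlap. Hspa5 had 2333 and 2966 CPM in panobinostat-treated cDC, against 1342 and 1705 CPM in vehicle-treated cDC. Both treated libraries were above both controls, and the log2 fold change was 0.80 ± 0.25 (SE; edgeR adjusted p = 1.0). When the cDC libraries were fitted alone with the replicate number as a block, Hspa5 alone of the 37 genes was called, with a log2 fold change of 0.78 ± 0.08 (SE; edgeR adjusted p = 0.0487), in a fit that called 0.782% of all genes. Manf, a secreted ER factor that binds BiP, had 141 and 180 CPM in panobinostat-treated cDC, against 98.3 and 126 CPM in vehicle-treated cDC. Hyou1, an HSP110-like ER chaperone that serves BiP as nucleotide exchange factor, had 74.9 and 64.6 CPM with panobinostat and 41.3 and 46.8 CPM with vehicle. Both genes kept their groups apart. Hsp90b1, at 855 and 999 CPM in panobinostat-treated cDC and 637 and 966 CPM in vehicle-treated cDC, did not.

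Glycoprotein chaperones and isomerases were alike in cDC: both lectins and all 5 isomerases had non-overlapping groups. Calr (calreticulin), a soluble lectin chaperone that helps load MHC class I, had 466 and 558 CPM in panobinostat-treated cDC, against 329 and 343 CPM in vehicle-treated cDC (log2 fold change 0.61 ± 0.22, SE; edgeR adjusted p = 1.0). Canx (calnexin), its membrane-bound relative, had 592 and 693 CPM with panobinostat and 527 and 551 CPM with vehicle. Pdia3, which partners both lectins, had 1517 and 1883 CPM with panobinostat, against 955 and 1174 CPM with vehicle (log2 fold change 0.68 ± 0.25, SE; edgeR adjusted p = 1.0). All 3 were higher in every treated library. Pdia6, an isomerase known to limit IRE1 signalling, had 592 and 662 CPM with panobinostat and 359 and 430 CPM with vehicle (log2 fold change 0.67 ± 0.25, SE; edgeR adjusted p = 1.0). The medians were 0.43 for the 2 lectins and 0.60 for the isomerases on the log2 scale.

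Over the 6 sensors and transcription factors in cDC the median log2 fold change was 0.29, and 5 of the 6 did not overlap. Xbp1 had 270 and 286 CPM in panobinostat-treated cDC, against 223 and 222 CPM in vehicle-treated cDC. Atf6 had 142 and 161 CPM with panobinostat and 115 and 92.1 CPM with vehicle. Both treated libraries of each gene were above both controls. Atf4, the factor of the PERK arm, had 34.6 and 35.8 CPM with panobinostat and 32.9 and 38.9 CPM with vehicle, and its groups overlapped. Ddit3 (CHOP), the death-linked factor below ATF4, had 9.98 and 10.1 CPM with panobinostat and 8.81 and 9.60 CPM with vehicle. Trib3 was at 1.69 and 0.815 CPM with panobinostat and at 0.932 and 0.877 CPM with vehicle.

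In cDC the median log2 fold change was 0.27 over the genes of ER-associated degradation and 0.25 over those of the translocon, glycosylation and export. Of 8 degradation genes, 4 had both treated libraries above the controls and 1, Derl3, had both below, at 3.81 and 4.51 CPM with panobinostat and 5.82 and 7.48 CPM with vehicle. Herpud1, which gathers the ubiquitin ligase complex, had 615 and 833 CPM with panobinostat and 524 and 687 CPM with vehicle, with overlap. All 7 translocon, glycosylation and export genes were above 0 and 5 did not overlap. Sec61a1, the pore of the translocon, had 388 and 470 CPM with panobinostat, against 286 and 302 CPM with vehicle. Ssr1, a translocon-associated subunit, had 230 and 266 CPM with panobinostat and 205 and 219 CPM with vehicle.

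**Figure D2:**
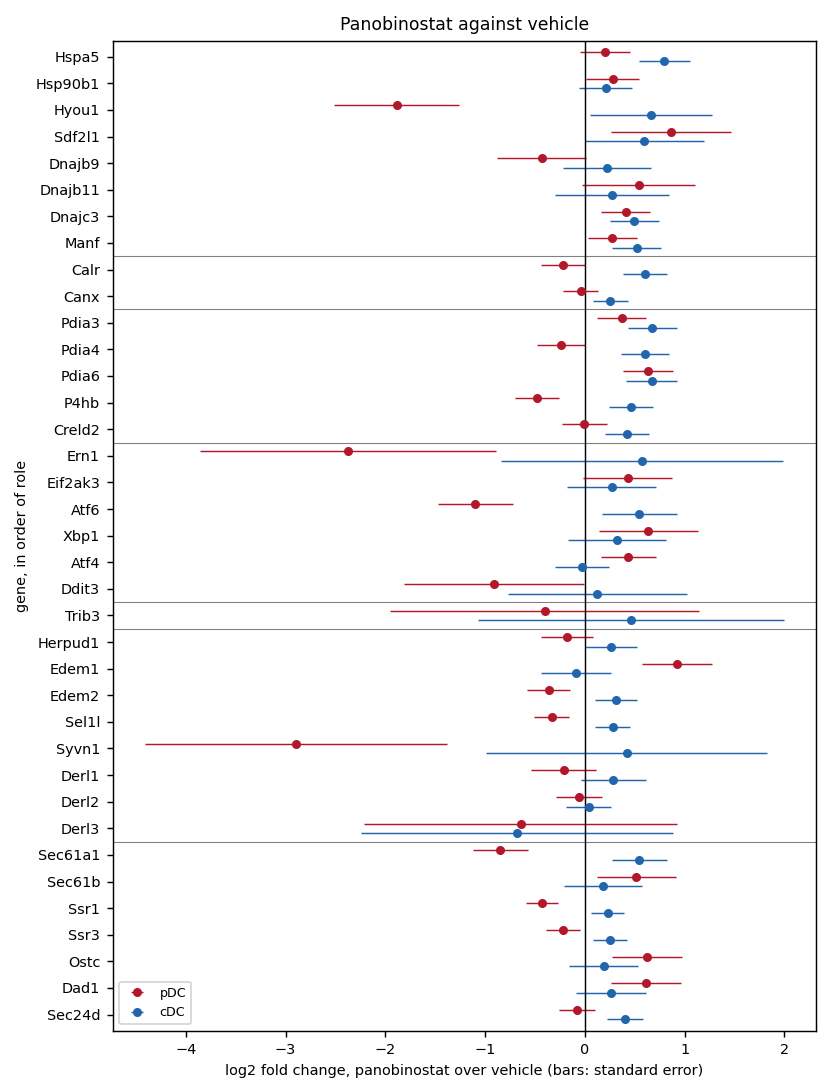
Log2 fold change of panobinostat over vehicle for the 37 tested genes, in pDC (red) and cDC (blue), with standard errors as bars and grey lines between roles. The cDC points lie to the right of 0 for 34 genes, while the pDC points fall on both sides, and no gene passed the adjusted p in either cell type.

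Directions were also counted within replicate numbers. Deviations of same-numbered libraries from their group means correlated between every pair of groups (r from 0.15 to 0.49 across genes), and libraries of 1 number were treated as a pair. In cDC, 33 of 37 genes were higher with panobinostat in both pairs and 2 were lower in both (Edem1 and Derl3), against 34.4% and 30.1% of all genes. The median log2 difference was 0.34 in pair 1 and 0.34 in pair 2, against 0.02 and 0.01 for all genes. Hspa5 differed by 0.80 in each pair. In pDC, 14 of 37 genes were higher with panobinostat in both pairs and 14 were lower in both, against 25.3% and 34.8% of all genes. There the median log2 difference was 0.31 in pair 1 and -0.29 in pair 2, against 0.02 and -0.60 for all genes.

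Transcripts of other kinds also differed between the treatments in cDC. Marker genes of plasma cells, which carry a large ER, were lower with panobinostat. The 10 such genes other than members of the pathway summed to 611 and 835 CPM in panobinostat-treated cDC, against 1350 and 2734 CPM in vehicle-treated cDC. Of the 9 that were tested, 8 had both treated libraries below the controls (18.8% of all genes). Ighm and Igkc made most of these sums, with Ighm at 475 and 597 CPM with panobinostat and 928 and 1616 CPM with vehicle. The plasma cell receptor gene Tnfrsf17 was at 0 to 0.139 CPM in the cDC libraries. Of 11 B cell genes, 3 were above 0 (50.4% of all genes), with sums of 271 and 471 CPM with panobinostat and 262 and 691 CPM with vehicle. The 14 cDC marker genes summed to 81265 and 87532 CPM with panobinostat and 57824 and 67292 CPM with vehicle, with 8 of 14 higher without overlap (22.2% of all genes). The 10 NK cell genes were all above 0. Only 2 of them were higher without overlap, near the share of all genes (22.2%). They summed to 251 and 498 CPM with panobinostat and 188 and 229 CPM with vehicle. Ncr1 and Gzma were at 43.1 and 50.5 CPM in panobinostat-treated cDC replicate 2 and at 6.5 CPM or less in the other cDC libraries. Of 13 heat shock genes of the cytosol, 8 were above 0, with sums of 7328 and 5374 CPM with panobinostat and 7045 and 4048 CPM with vehicle. Among them Hspa1a, a near copy of Hspa1b, divided by replicate number: it was at 1383 and 115 CPM with panobinostat and at 1820 and 37.3 CPM with vehicle. The part of these transcripts in the result was not tested.

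**Figure D3:**
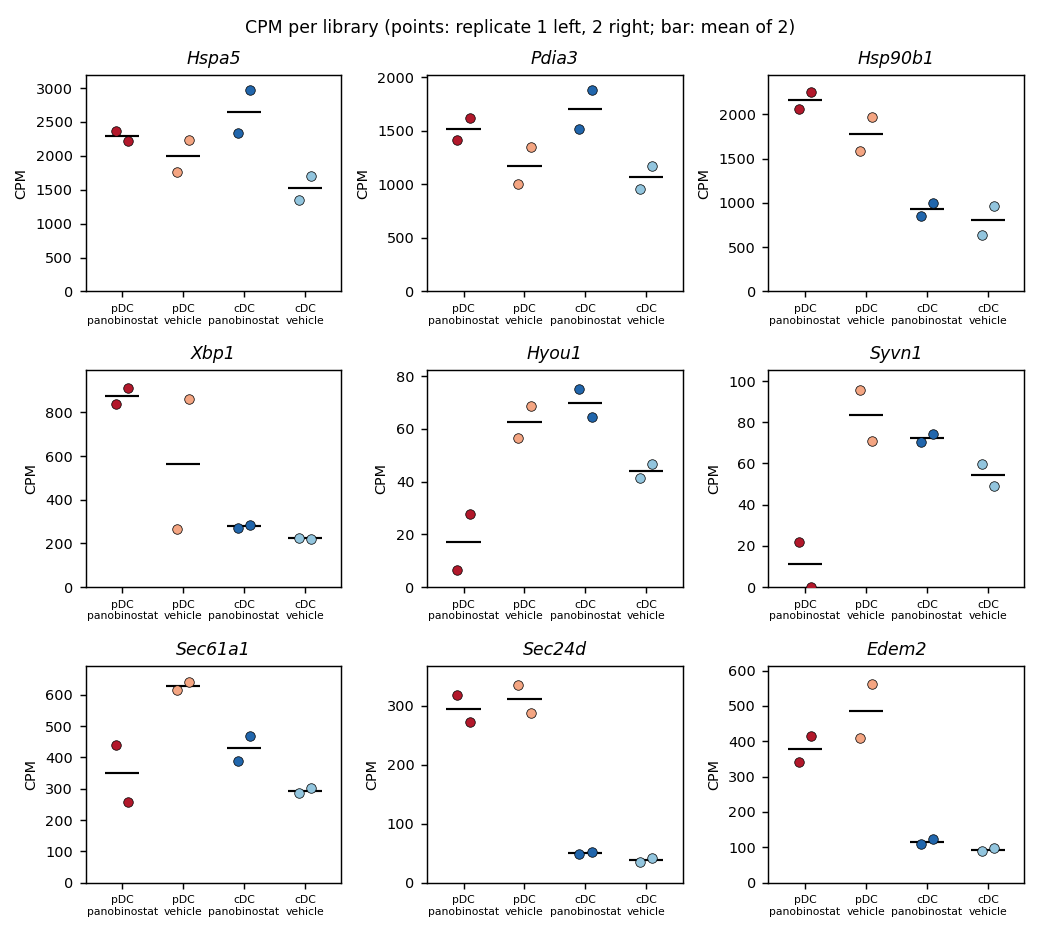
CPM of 9 genes in each library, with 1 point per library (replicate 1 on the left, replicate 2 on the right) and a bar at the mean of 2; the vertical axes are linear and start at 0. Hspa5 and Pdia3 have both panobinostat-treated cDC libraries above both vehicle-treated ones, Hyou1 and Syvn1 are low in panobinostat-treated pDC, and Sec24d and Edem2 separate pDC from cDC.

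In pDC, panobinostat was not followed by a common direction. None of the 37 genes was called, where 0.0913% of all genes were, and DESeq2 and limma-voom called 0 of them too. An unadjusted p below 0.05 was found for 6 of the 37 and for 2119 of all genes. The log2 fold change was above 0 in 15 of 37, against 44.0% of all genes, with a median of -0.08 for these genes and -0.14 for all. Both treated libraries were above both controls in 7 genes (15.7% of all genes) and below both in 11 (26.5% of all genes). The median of these genes lay between -0.25 and 0.05 over the alternative settings, so its sign was not stable. Under scaling by library size alone the median of all genes was -0.28 and that of these genes -0.25.

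The 4 genes with the smallest p in pDC came from different roles. Sec61a1 had 441 and 257 CPM in panobinostat-treated pDC, against 614 and 642 CPM in vehicle-treated pDC (log2 fold change -0.85 ± 0.28, SE; edgeR adjusted p = 0.255). Hyou1 had 6.54 and 27.5 CPM in panobinostat-treated pDC, against 56.6 and 68.7 CPM in vehicle-treated pDC (log2 fold change -1.89 ± 0.63, SE; edgeR adjusted p = 0.265). Both treated libraries of these 2 genes were below both controls. Atf6, the sensor that becomes a transcription factor, had 95.3 and 43.1 CPM with panobinostat and 162 and 135 CPM with vehicle (log2 fold change -1.10 ± 0.38, SE; edgeR adjusted p = 0.275). Edem1, a lectin-like factor that hands misfolded glycoproteins to degradation, had 37.7 and 39.7 CPM with panobinostat, against 24.8 and 15.9 CPM with vehicle (log2 fold change 0.92 ± 0.35, SE; edgeR adjusted p = 0.304). Edem1 was the one of the 4 that was higher in the treated libraries.

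The 2 treated pDC libraries differed widely in some of these genes. Syvn1, the HRD1 ubiquitin ligase of ER-associated degradation, had 22.1 and 0.093 CPM in panobinostat-treated pDC (445 counts and 1 count), against 95.5 and 71.0 CPM in vehicle-treated pDC. Ern1 had 10.9 and 0.093 CPM in panobinostat-treated pDC (219 counts and 1 count), against 34.7 and 22.7 CPM in vehicle-treated pDC. Both were named after their values were seen. Trib3 and Derl3 had 0 counts in replicate 2 of panobinostat-treated pDC, which allows a level of up to 0.279 CPM by counting error alone. Between the 2 treated pDC libraries, 7 of 37 genes were more than 1 log2 unit apart (Hyou1, Ern1, Atf6, Ddit3, Trib3, Syvn1 and Derl3), against 54.1% of all genes.

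Leaving out either treated pDC library changed the calls. Without replicate 2, Hyou1 (log2 fold change -3.31 ± 0.26, SE; edgeR adjusted p = 0.0141) and Syvn1 (-1.97 ± 0.26, SE; edgeR adjusted p = 0.0204) were called lower, with 4.78% of all genes called. Without replicate 1, 14 of the 37 were called, 5 higher and 9 lower, with 55.3% of all genes called. Hyou1 and Syvn1 were called lower in both of these fits, in which the lone treated library is assumed to vary as the other groups do. Hyou1 had its lower level in replicate 1, and Syvn1 had its lower level in replicate 2.

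Among the abundant chaperones and isomerases of pDC, the groups overlapped in some genes and not in others. Hspa5 had 2371 and 2223 CPM in panobinostat-treated pDC and 1755 and 2241 CPM in vehicle-treated pDC, with overlap. Hsp90b1 had 2066 and 2253 CPM with panobinostat and 1589 and 1969 CPM with vehicle, without overlap (log2 fold change 0.28 ± 0.26, SE; edgeR adjusted p = 0.636). Pdia3 had 1419 and 1617 CPM with panobinostat and 1005 and 1345 CPM with vehicle, without overlap (log2 fold change 0.37 ± 0.25, SE; edgeR adjusted p = 0.501). The means of treated and control pDC differed in these 3 genes by about as much as, or by less than, the 2 controls did from each other. Pdia6 had 700 and 1057 CPM with panobinostat and 512 and 621 CPM with vehicle, without overlap. Its log2 fold change in pDC was 0.63 ± 0.25 (SE; edgeR adjusted p = 0.322), close to the 0.67 given above for cDC. Canx had 779 and 676 CPM with panobinostat and 727 and 770 CPM with vehicle, and Herpud1 had 890 and 831 CPM with panobinostat and 824 and 1125 CPM with vehicle. Xbp1 was at 838 and 912 CPM with panobinostat and at 264 and 861 CPM with vehicle, so that 1 control library stood far below the other 3 pDC libraries. Sdf2l1, Dnajb9 and Dnajb11, which work with BiP, were also more than 1 log2 unit lower in that control library than in the other control.

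Marker genes of other cells differed between the treatments in pDC as well. The 10 NK cell genes summed to 593 and 1319 CPM in panobinostat-treated pDC, against 180 and 275 CPM in vehicle-treated pDC, nearly all of it from Klrd1 and Klrk1, while Ncr1 and Gzma were at 0 CPM in replicate 2 of panobinostat-treated pDC. The 14 cDC genes summed to 39000 and 68682 CPM with panobinostat and 28836 and 42799 CPM with vehicle, with overlap, and 9 of 14 were above 0 (44.0% of all genes). Most of these sums was Cd74, at 23938 and 39144 CPM with panobinostat and 17770 and 25362 CPM with vehicle. Zbtb46, Batf3 and Xcr1 were at 19.6 CPM or less in the pDC libraries. Plasma cell genes outside the pathway, 5 of 9 above 0, summed to 3465 and 3812 CPM with panobinostat and 3158 and 3293 CPM with vehicle. The 11 B cell genes, 9 of them above 0, summed to 780 and 1597 CPM with panobinostat and 600 and 751 CPM with vehicle, most of it from Fcrla. The 5 erythroid genes summed to 3260 and 1079 CPM with panobinostat and 1039 and 554 CPM with vehicle. The 10 T cell genes summed to 603 and 1075 CPM with panobinostat and 1228 and 1981 CPM with vehicle. Nearly all of the T cell sums came from Cd4, Cd8a and Cd8b1, while Cd3e was at 0 to 1.3 CPM in the pDC libraries. The part of all these transcripts in the pDC values was not tested.

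**Figure D4:**
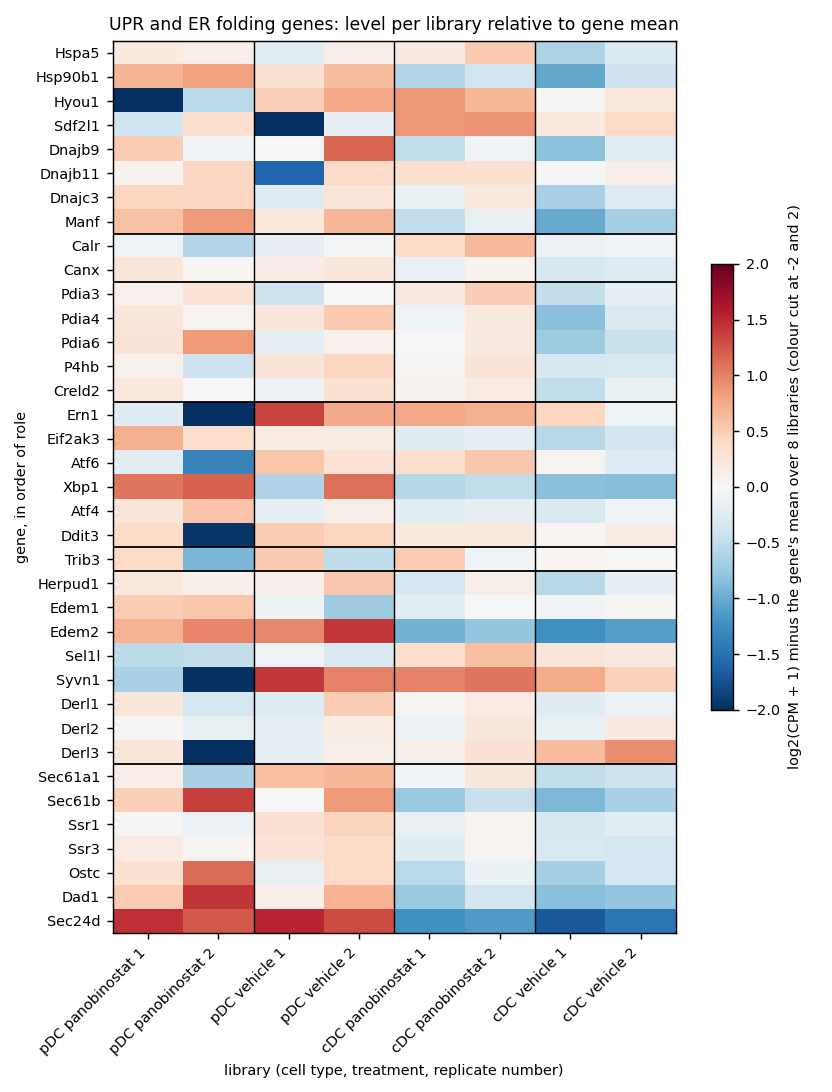
Level of each tested gene in each of the 8 libraries, as log2(CPM + 1) minus the gene's mean over the libraries, with red above and blue below the mean and black lines between roles and groups. Panobinostat-treated cDC are redder than vehicle-treated cDC in most rows, and panobinostat-treated pDC replicate 2 has cells at or near the blue limit at Ern1, Ddit3, Syvn1 and Derl3.

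The effect of panobinostat was then compared between the cell types as pDC effect minus cDC effect. None of the 37 genes passed this test (1 gene of all, 0.00702%), and 11 of 37 were above 0, against 44.9% of all genes. DESeq2 and limma-voom called 0 of the 37, and 8 of 37 and 1107 of all genes had an unadjusted p below 0.05. The smallest p belonged to Sec61a1, at -1.39 ± 0.39 on the log2 scale (SE; edgeR adjusted p = 0.425). It was -1.64 ± 0.53 for Atf6, -0.95 ± 0.31 for P4hb, the classical disulfide isomerase, and -2.55 ± 0.87 for Hyou1, with edgeR adjusted p-values of 0.487, 0.498 and 0.527. The median over the 37 genes was -0.44, against -0.13 over all genes. Without panobinostat-treated pDC replicate 2, Hyou1 (-3.96 ± 0.31, SE; edgeR adjusted p = 0.0281) and Syvn1 (-2.37 ± 0.32, SE; edgeR adjusted p = 0.0395) were called, with 1.85% of all genes called. Without replicate 1, 10 of the 37 were called, with 43.4% of all genes called.

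By direction alone, 11 of the 37 genes had both treated libraries below both controls in pDC and above both in cDC, a pattern of 6.05% of all genes. They were Atf6, Ddit3, Ern1, Hyou1, P4hb, Pdia4, Sec61a1, Sel1l, Ssr1, Ssr3 and Syvn1. Atf6, Ddit3, Ern1, Hyou1 and Syvn1 are among the genes named above as more than 1 log2 unit apart between the treated pDC libraries. Pdia4 was barely apart in pDC, at 231 and 207 CPM with panobinostat and 232 and 284 CPM with vehicle. P4hb had 432 and 302 CPM in panobinostat-treated pDC and 482 and 544 CPM in vehicle-treated pDC. In cDC it had 412 and 486 CPM with panobinostat and 323 and 328 CPM with vehicle. The 11 genes take in sensors, the translocon and the SEL1L and HRD1 ligase pair, but not the most abundant chaperones. Dnajc3, a BiP cochaperone that holds back PERK, was higher without overlap in both cell types, as were Eif2ak3, Pdia3 and Pdia6 (4.84% of all genes). The reverse pattern, and lower in both, had 0 of 37 (2.47% and 5.39% of all genes).

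Between the cell types, pDC had more mRNA of the secretory export and degradation genes Sec24d and Edem2 than cDC under both treatments. Sec24d, a cargo adaptor of the COPII coat that carries folded proteins out of the ER, had 319 and 272 CPM in panobinostat-treated pDC and 48.8 and 52.4 CPM in panobinostat-treated cDC. With vehicle it had 336 and 289 CPM in pDC and 35.4 and 41.4 CPM in cDC. The log2 fold change of pDC over cDC was 2.55 ± 0.19 with panobinostat (SE; edgeR adjusted p = 0.00137) and 3.02 ± 0.20 with vehicle (SE; edgeR adjusted p = 0.00126). Sec24d was called in all 18 alternative settings of both comparisons. Whether the XBP1 core shown above bears on this difference was not tested. Edem2, which trims mannose from glycoproteins bound for degradation, had 341 and 414 CPM in panobinostat-treated pDC and 109 and 123 CPM in panobinostat-treated cDC. With vehicle it had 409 and 561 CPM in pDC and 89.3 and 97.1 CPM in cDC. Its log2 fold changes were 1.71 ± 0.22 with panobinostat (SE; edgeR adjusted p = 0.00637) and 2.38 ± 0.23 with vehicle (SE; edgeR adjusted p = 0.00288). Edem2 was called in 15 of 18 alternative settings with panobinostat and in all 18 with vehicle. No pDC library of Sec24d or Edem2 overlapped a cDC library. Edem1, of the same family, was not called between the cell types.

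With panobinostat, 6 of the 37 genes were called higher and 2 lower in pDC than in cDC, where 7.76% and 10.2% of all genes were called (18.0% in either direction). With vehicle, 4 were called higher and 0 lower (0 lower with DESeq2 and limma-voom as well), where 5.01% and 4.71% of all genes were called (9.73% in either direction). Hsp90b1 and Manf were called higher in pDC under both treatments, though Hsp90b1 was called in 10 of 18 alternative settings with panobinostat and 11 of 18 with vehicle, and Manf in 9 and 12 of 18. Under RLE scaling Hsp90b1 was not called with vehicle (log2 fold change 1.02 ± 0.25, SE; edgeR adjusted p = 0.0565). For Hsp90b1 the log2 fold change was 1.22 ± 0.27 with panobinostat (SE; edgeR adjusted p = 0.0299) and 1.15 ± 0.27 with vehicle (SE; edgeR adjusted p = 0.0478). For Manf it was 1.04 ± 0.25 with panobinostat (SE; edgeR adjusted p = 0.0377) and 1.28 ± 0.25 with vehicle (SE; edgeR adjusted p = 0.0292), from 300 and 359 CPM in panobinostat-treated pDC and 229 and 315 CPM in vehicle-treated pDC, and the cDC values given above. Dad1, a subunit of the oligosaccharyltransferase, and Sec61b, a small subunit of the translocon, passed with panobinostat, with log2 fold changes of 1.59 ± 0.36 and 1.59 ± 0.40 (SE; edgeR adjusted p = 0.0322 and 0.0426). Dad1 had 243 and 459 CPM in panobinostat-treated pDC and 101 and 131 CPM in panobinostat-treated cDC. Over the alternative settings with panobinostat, Dad1 was called in 10 of 18 and Sec61b in 9 of 18. With the replicate block, Dad1 and Sec61b were called with vehicle too.

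The number of calls between the cell types rested on the libraries in the fit, for these genes as for all. Without panobinostat-treated pDC replicate 1, 21 of the 37 were called with panobinostat (65.9% of all genes) and 14 with vehicle (37.2%). Without replicate 2 of that group, 9 were called with panobinostat and 13 with vehicle (36.1% of all genes in each). Leaving out any 1 of the 4 cDC libraries left 1 or 2 called with panobinostat and 2 with vehicle. Leaving out either vehicle-treated pDC library left 4 with panobinostat and 3 with vehicle. In a fit of the 4 panobinostat libraries alone, 1 was called (1.21% of all genes), and 3 with the replicate block (4.44%). In a fit of the 4 vehicle libraries alone, 10 were called (32.8%), and 19 with the replicate block (43.4%), of which Sdf2l1 was lower in pDC. Sec24d was among the called genes in each of these fits.

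The 2 genes called lower in panobinostat-treated pDC than in panobinostat-treated cDC were Sel1l and Calr. Sel1l was called in 12 of 18 alternative settings of this comparison and Calr in 7 of 18. Sel1l, the adaptor of the HRD1 ligase, had 96.6 and 98.8 CPM in pDC, against 178 and 213 CPM in cDC (log2 fold change -1.0 ± 0.18, SE; edgeR adjusted p = 0.0165). Calr had 339 and 238 CPM in pDC, against 466 and 558 CPM in cDC (log2 fold change -0.83 ± 0.22, SE; edgeR adjusted p = 0.0485), and it was not called with the replicate block, which added Ostc as higher. With vehicle, Calr differed by -0.01 ± 0.22 (SE; edgeR adjusted p = 0.995), from 320 and 350 CPM in pDC and 329 and 343 CPM in cDC. The difference between those 2 values of Calr is the difference of drug effects, -0.82 ± 0.31, which did not pass its test (edgeR adjusted p = 0.596).

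With vehicle, 30 of the 37 genes were above 0 in pDC over cDC (51.1% of all genes), and 26 were higher without overlap (35.1% of all genes), with a median log2 fold change of 0.52 against 0.02 for all genes. All 7 translocon, glycosylation and export genes were higher without overlap. With panobinostat, 18 of 37 were above 0 (45.2% of all genes) and 14 were higher without overlap (24.7% of all genes), with a median of -0.002 against -0.18 for all genes. Both comparisons share libraries with the drug comparisons above and are not independent of them. Plasma cell genes summed higher in each pDC library than in the cDC libraries, at the values given above, and Ighm alone made 2896 to 3256 CPM of the pDC sums. Gene by gene, 8 of 13 tested plasma cell genes, pathway members included, were above 0 with panobinostat (median log2 fold change 0.65) and 5 of 13 with vehicle (median -0.97). The part of such transcripts in the cell type difference was not tested.

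**Figure D5:**
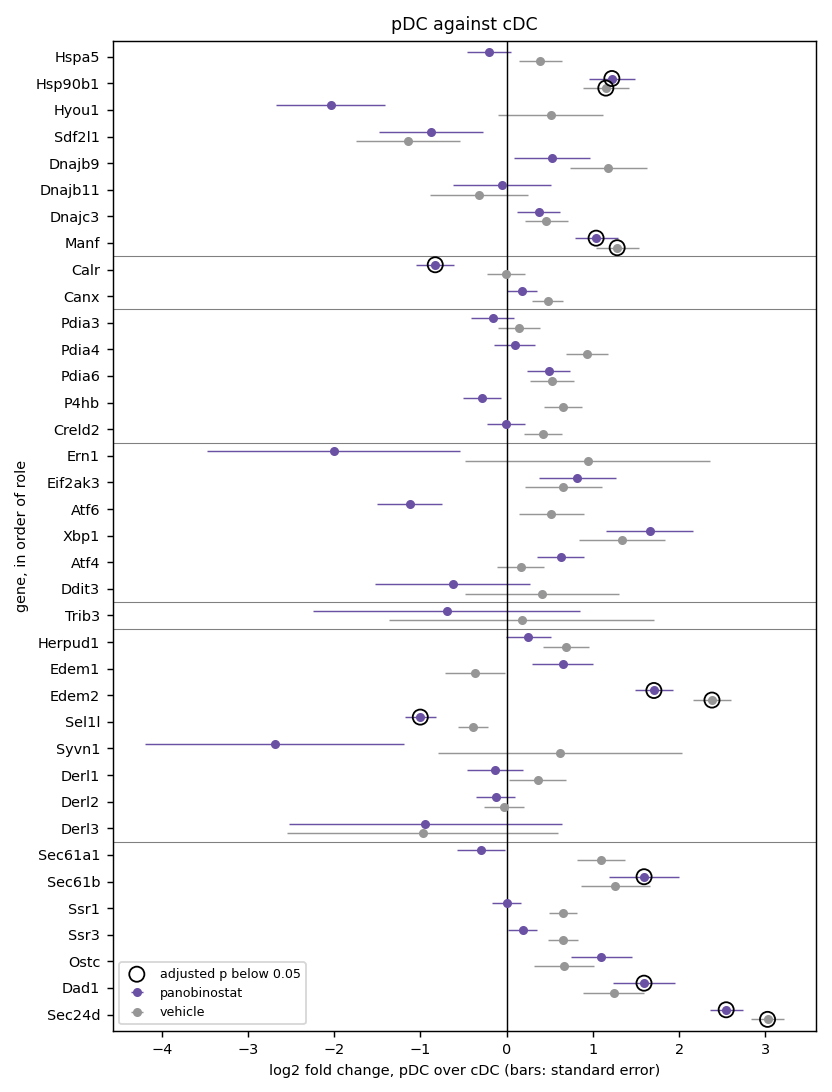
Log2 fold change of pDC over cDC for the 37 tested genes, with panobinostat (purple) and with vehicle (grey), standard errors as bars and open circles around values at an adjusted p below 0.05. Sec24d, Edem2, Manf and Hsp90b1 are circled under both treatments, and Hyou1 and Syvn1 lie left of 0 with panobinostat and right of 0 with vehicle.

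Beyond the 38 genes, 126 further genes of the same processes were tested. None was called for panobinostat in pDC or in cDC or for the difference between them, with 17, 4 and 15 of them at an unadjusted p below 0.05. In cDC, 92 of the 126 were above 0 with panobinostat (50.4% of all genes) and 49 had both treated libraries above the controls (22.2% of all genes), with a median log2 fold change of 0.12. Of 17 targets of ATF4 outside the 38 genes, 3 were higher and 5 lower without overlap in cDC (22.2% and 18.8% of all genes), with a median of 0.06. Between pDC and cDC, 18 of the 126 were called higher and 7 lower with panobinostat (7.76% and 10.2% of all genes), and 16 higher and 2 lower with vehicle (5.01% and 4.71% of all genes). Genes of translocation, signal peptide removal and N-glycosylation made 7 of the 18 and 8 of the 16. Tram1, which helps nascent chains through the translocon, had 694 and 977 CPM in panobinostat-treated pDC and 113 and 113 CPM in panobinostat-treated cDC (log2 fold change 2.89 ± 0.28, SE; edgeR adjusted p = 0.00254). Serp1, a stabiliser of membrane proteins in the translocon, had 1937 and 3122 CPM in vehicle-treated pDC and 559 and 667 CPM in vehicle-treated cDC (log2 fold change 2.05 ± 0.30, SE; edgeR adjusted p = 0.0117). Eif2ak4 (GCN2), the amino acid sensing kinase upstream of ATF4, was lower in panobinostat-treated pDC, at 6.30 and 5.95 CPM, than in panobinostat-treated cDC, at 39.0 and 44.7 CPM (log2 fold change -2.77 ± 0.35, SE; edgeR adjusted p = 0.00578).

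The genes with an exact ERSE match and those without one overlapped in their values. For panobinostat in cDC, the 9 genes with an ERSE had a median log2 fold change of 0.42, from -0.68 (Derl3) to 0.80 (Hspa5). Of these 9, 7 were higher without overlap (22.2% of all genes), and Derl3 was lower without overlap. The 22 tested genes with a promoter entry and no exact ERSE match had a median of 0.27, from -0.09 to 0.68. Of these 22, 15 were higher without overlap. The 22 are not a set free of related elements: they include Herpud1 with its ERSE-II and Sec24d with its XBP1 core. Looser spellings of the ERSE were not searched in them. For panobinostat in pDC the medians were -0.004 with and -0.13 without an exact ERSE match. These are descriptions of 9 and 22 genes, and the difference was not tested. Atf6, Derl1, Hyou1, Manf, Ostc and Sec61a1 had no promoter entry.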

How the data were processed

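RNA of 8 libraries (4 groups of 2) was analysed. Trizol and column extraction and a NEBNext low-input mRNA kit were used, per the labels. The submitters' processing notes name bcl2fastq (2.17.1.14), FastQC (0.11.6) and cutadapt (2.1) for the reads, which were aligned to mm10 with HISAT2 (2.1.0) and counted with featureCounts (Subread 2.0.0). The authors deposited whole-number read counts per Entrez gene ID, with no normalization. Strandedness and the treatment of multi-mapped reads are not stated there, so a gene and an overlapping or antisense neighbour cannot be told apart.

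Columns named D5W were taken as vehicle and LBH as panobinostat, and 0 columns had no sample. Symbols matched 25275 of 27179 IDs. Genes passing filterByExpr (minimum count 10, minimum total 15) were scaled by TMM and fitted over all 4 groups with edgeR 4.0.16 (glmQLFit and glmQLFTest, R 4.3.3), with 4 residual degrees of freedom, and adjusted over 14238 genes. CPM in the text is scaled to each library's total of counts times its TMM factor. Exon lengths are unions over GENCODE M21 transcripts. Named were all called genes or, with none called, the 4 with the smallest p, the 2 most abundant per role, and, from the other pathway lists, at most 3 called genes a comparison, by p. Members and lists were chosen with earlier results of these data known. Same-numbered libraries deviated together (r from 0.15 to 0.49 in 6 pairs of groups), so the number was used as a block in an alternative fit. Other alternatives changed scaling, filter, tool (DESeq2 1.42.0, limma-voom 3.58.1) and libraries. The labels call the 2 libraries of a group biological replicates from pooled mice, and p-values measure the spread between such pools. In the main fit this is 1 spread per gene shared by the 4 groups, the unlike treated pDC libraries included. The p-values for cDC therefore do not measure the spread between cDC pools alone. For panobinostat in cDC, the SE of Syvn1 was 1.41 in the main fit. It was 0.12 when the cDC libraries were fitted alone with the replicate block. The floor given for a count of 0 is 3 counts and covers counting error only.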

Additional observations from a re-analysis of the deposited data

How the results depend on the processing

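Of 18 alternative settings (16 for the difference of drug effects), none turned the sign of a gene called in the main comparison. For panobinostat in pDC, 14 genes were called without panobinostat-treated pDC replicate 1 and 2 without replicate 2, against 0 otherwise, so that leaving out 1 library gave 0 to 14. For the difference of drug effects the same 2 settings gave 10 and 2, with a range of 0 to 10. For panobinostat in cDC, 1 gene was called when those groups alone were fitted with the replicate block, and 0 in every other setting. For pDC over cDC with panobinostat, against 8 in all, DESeq2 called 13, a fit of the compared groups alone called 1, that fit with the replicate block called 3, and leaving out 1 library gave 1 to 21. With vehicle, against 4, DESeq2 called 8, limma-voom 7, the compared groups alone 10, those with the replicate block 19, and leaving out 1 library gave 2 to 14. The replicate block over all groups called 8 with panobinostat and 6 with vehicle. The cause of these shifts was not tested. RLE scaling gave pDC over cDC with vehicle a median of -0.11 for all genes and 0.39 for these. Calls among all genes moved as far: 161 to 9796 with panobinostat against 2557, and 288 to 5954 with vehicle against 1385. For panobinostat in pDC they ran from 0 to 8227, against 13, and in cDC from 0 to 106, against 0. For the difference of drug effects they ran from 0 to 6457, against 1.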
